A study of Mus musculus with 2 samples.

Results

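Follicular helper-like T cells were picked from lymph node immune cells of heart graft recipients by 4 marker genes, and numbered 56 of 10063 kept cells. There were 22 such cells in the library from recipients of an allogeneic graft (C57BL/6 donor, Balb/c recipient) and 34 in the library from recipients of a syngeneic graft (Balb/c donor, Balb/c recipient). Both kinds of recipient were Balb/c mice aged 6-8 weeks, for which the labels name no altered allele and no drug, so by the labels they differed in the strain of the donor heart. Each graft type had 1 single-cell library, and the labels do not say how many mice it pools. A member had at least 1 unique molecular identifier (UMI) of Cd3d, Cd3e and Cd3g together, no UMI of Cd8a, Cd8b1, Cd79a or Foxp3, and at least 2 UMIs of Cxcr5, Pdcd1, Tox2 and Il21 together. The other T cells that passed the same gate with a marker sum below 2 UMIs numbered 721 in the allogeneic and 1758 in the syngeneic library, and are called the other CD8-negative T cells below.

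Follicular helper T cells are CD4 T cells that move into B cell follicles and help B cells form germinal centres and switch antibody class. The chemokine receptor Cxcr5 draws them to the follicle, and the factor Bcl6 directs their programme with Maf and Tcf7. The surface proteins Icos and Slamf6 and the adaptor Sh2d1a govern their contact with B cells. Follicular helper cells secrete the cytokines Il21 and Il4. Pdcd1 encodes the inhibitory receptor PD-1, which other activated T cells also carry, and Tox2 is a nuclear factor of the follicular programme.

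The gene for Il21 was used to choose the cells and that for Il4 was not, and both cytokines are known in mice to be under the control of Maf, so their RefSeq promoters (build GRCm38.p6, both on the minus strand) are shown here. Capitals mark each match to TGCTGA, a core that Maf proteins bind, or to its reverse TCAGCA. The Il21 window is chr3:37232587-37232886 and the Il4 window, taken at the outermost of 2 listed starts, is chr11:53618616-53618915. Each holds 250 bases before and 50 bases after the start.
Il21: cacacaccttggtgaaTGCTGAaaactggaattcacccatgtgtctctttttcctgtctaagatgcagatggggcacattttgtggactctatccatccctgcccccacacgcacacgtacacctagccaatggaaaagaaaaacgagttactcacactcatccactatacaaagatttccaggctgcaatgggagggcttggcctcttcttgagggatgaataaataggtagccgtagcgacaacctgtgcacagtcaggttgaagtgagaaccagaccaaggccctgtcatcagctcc
Il4: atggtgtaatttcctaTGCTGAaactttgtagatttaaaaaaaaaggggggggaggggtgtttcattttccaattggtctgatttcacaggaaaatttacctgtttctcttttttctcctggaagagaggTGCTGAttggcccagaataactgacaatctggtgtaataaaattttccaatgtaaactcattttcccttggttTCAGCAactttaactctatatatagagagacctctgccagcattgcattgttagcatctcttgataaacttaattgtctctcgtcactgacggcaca
The Il21 window held 1 match, at base 17, and the Il4 window held 3, at bases 17, 131 and 204. Of 32851 mouse promoters of the same length, 19.5% held at least 1 match, 2.4% at least 2 and 0.2% at least 3. These letters are a description of the windows and show no binding.

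The libraries were not alike in depth. The allogeneic library held 8415043 UMIs in 3500 barcodes and the syngeneic library 46486632 UMIs in 7967 barcodes, and their shallowest kept T cells had 242 UMIs (allogeneic) and 3448 UMIs (syngeneic). Haemoglobin genes took 9.11% of the UMIs of the 2106 kept allogeneic cells and 0.114% of those of the 7957 kept syngeneic cells. No member shared its barcode with a cell of the other library, although 66 barcodes stood in both. Members had medians of 4883 UMIs (allogeneic) and 5890 UMIs (syngeneic), above the 3171 and 4333 UMIs of the other CD8-negative T cells, and a rule that asks for 2 UMIs picks deeper cells. Summed UMIs were 110952 for the allogeneic and 231023 for the syngeneic members, so the floor of 3 UMIs stood at 27 and 13 CPM (UMIs of a gene per 1000000 UMIs of the group). With 1 library per graft type nothing here was tested. All intervals are exact at 95% and cover counting error only.

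The markers that chose the cells differed between the libraries. In the allogeneic members Pdcd1 had 129 UMIs in 19 of 22 cells, Cxcr5 had 5 UMIs in 3 cells, Tox2 had 2 UMIs in 2 cells and Il21 had 1 UMI in 1 cell. In the syngeneic members Pdcd1 had 84 UMIs in 29 of 34 cells, Cxcr5 had 30 UMIs in 18 cells, Tox2 had 26 UMIs in 14 cells and Il21 had 18 UMIs in 8 cells. Of the allogeneic members, 19 carried UMIs of a single marker, which was Pdcd1 alone in 17, and none carried more than 2 of the markers. Of the syngeneic members, 9 carried a single marker, 18 carried 2, 4 carried 3 and 3 carried all 4, and Cxcr5 and Pdcd1 stood together in 14 cells, against 1 cell of the allogeneic library. The marker sum had a median of 3.5 UMIs and a highest value of 17 UMIs in allogeneic members, and a median of 3 and a highest of 18 UMIs in syngeneic members. Just inside the threshold, 8 allogeneic and 10 syngeneic cells had 2 UMIs, and just outside it 16 and 79 cells had 1 UMI. These values chose the cells and are no result about them.

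**Figure D1:**
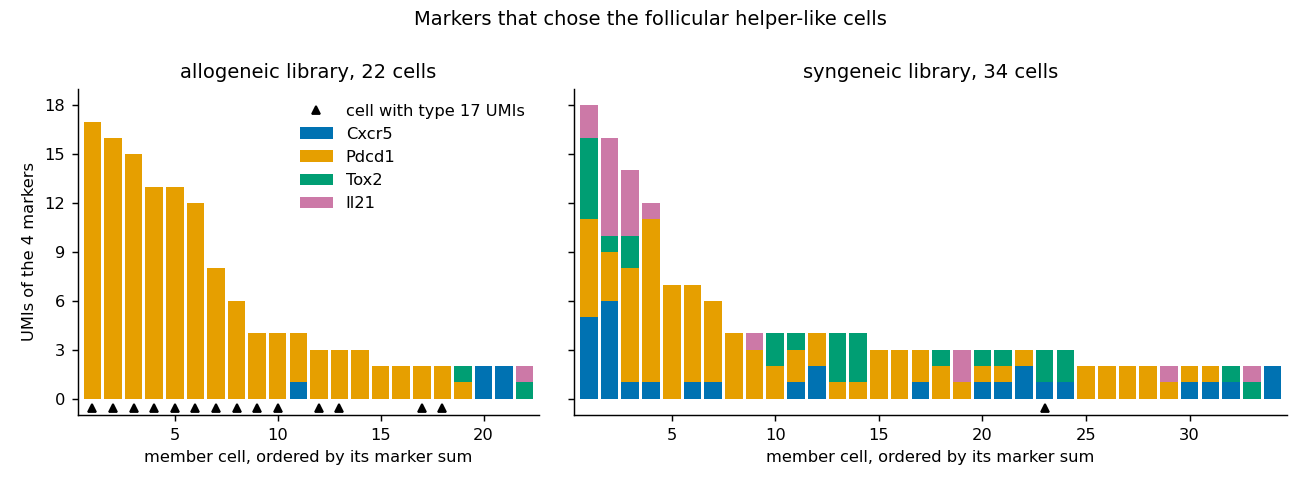
Each bar is a member cell and its height is the number of UMIs of the 4 markers, by colour, with the allogeneic library at left (22 cells) and the syngeneic library at right (34 cells). Triangles mark cells with a UMI of Il17a, Il17f, Il23r or Cd163l1. The tallest allogeneic bars are Pdcd1 alone and carry triangles, and 25 of the 34 syngeneic bars hold at least 2 colours.

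The markers also had UMIs outside the gate, and whether these were free RNA, mixed barcodes or expression was not tested. Cxcr5, which B cells carry too, had a UMI in 17% of allogeneic and 37.7% of syngeneic barcodes with at least 5 Cd79a UMIs (B cells; medians of 2463.5 and 5311.5 UMIs), and in 0.545% and 4.20% of CD8-positive T cells (medians of 4040 and 5116.5 UMIs). Pdcd1 had a UMI in 0.446% and 0.881% of those B cell barcodes. A marker sum of at least 2 was met by 9 of 551 allogeneic CD8-positive T cells (1.63%, 0.750 to 3.08%) and by 27 of 2928 syngeneic ones (0.922%, 0.609 to 1.34%). The Cd79a condition removed many barcodes: of the CD8-negative T barcodes, 181 of 1012 in the allogeneic and 1244 of 3163 in the syngeneic library had a Cd79a UMI, and 15 syngeneic barcodes with exactly 1 Cd79a UMI would have met the rest of the rule. With those let in, the share of members was 2.82% in the allogeneic and 2.17% in the syngeneic library. This and the other settings added after seeing the data are listed in the closing section.

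As a share of the gated CD8-negative T cells, members made up 2.96% (22 of 743, 1.86 to 4.45%) in the allogeneic library and 1.90% (34 of 1792, 1.32 to 2.64%) in the syngeneic library. The intervals overlap. The order turned round without the cells with a UMI of Il17a, Il17f, Il23r or Cd163l1 described next, with 1.12% (8 of 716, 0.484 to 2.19%) in the allogeneic and 1.87% (33 of 1762, 1.29 to 2.62%) in the syngeneic library. It also turned with UMIs of at least 2 different markers asked for, with 0.414% (0.0855 to 1.21%) and 1.40% (0.909 to 2.06%), and with a Cd4 UMI asked for, with 2.29% (0.845 to 4.92%) and 2.66% (1.74 to 3.87%).

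Most measured genes of a follicular helper list outside the rule were higher in syngeneic members, and the label failed for most allogeneic members. That list was chosen with earlier results of these data known, so it is no independent support for the label. Its median log2 ratio in syngeneic members was 1.96, and lists of regulatory T cell and type 17 (interleukin 17) genes stood at 1.91 and 2.35. Of the 22 allogeneic members, 14 had a UMI of Il17a, Il17f, Il23r or Cd163l1, genes of T cells that make interleukin 17, against 1 of the 34 syngeneic members. These 4 genes were picked as a set after the values were seen. Il17a, the cytokine itself, had 178 UMIs in 10 allogeneic members (lowest 0, median 0, highest 69 per cell) and 0 UMIs in syngeneic members. Cd163l1, a scavenger receptor known in mice from interleukin 17-making gamma-delta T cells, had 81 UMIs in 13 allogeneic members and 1 UMI in a syngeneic member. The receptor Il23r had 12 UMIs in 9 allogeneic members, the innate-like T cell factor Zbtb16 20 UMIs in 11, the kinase Blk 50 UMIs in 14 and the chemokine receptor Cxcr6 157 UMIs in 13. None of the 14 cells had a UMI of Cd4, Cxcr5, Il21, Sh2d1a, Slamf6, Cd200 or Tcf7, although they held 80656 UMIs in all and 118 of the 129 Pdcd1 UMIs (lowest 2, median 7, highest 17 per cell). A list of gamma-delta and innate-like T cell genes as a whole was not raised in the allogeneic members. Of its 4 measured genes 1 was at least 1.5-fold higher and 2 lower than in the other CD8-negative T cells (median log2 -1.51). The list summed to 297 CPM in members and 660 CPM in the other cells. The constant genes of the gamma and delta receptor chains were not analysed here. These 14 cells are therefore called type 17 Pdcd1-positive cells below.

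The shares of Pdcd1-positive cells among cells with type 17 UMIs are a description, since Pdcd1 was used to choose the members and the 4 type 17 genes were picked from them. Among all gated CD8-negative T cells, 27 allogeneic cells had a UMI of the 4 type 17 genes, and 15 of them (55.6%, 35.3 to 74.5%) had a Pdcd1 UMI. In the syngeneic library 30 cells had such a UMI, and 1 of them (3.33%, 0.0844 to 17.2%) had a Pdcd1 UMI. Their median depths were 4882 and 5248.5 UMIs. These cells held 85 Cd163l1 and 186 Il17a UMIs in the allogeneic library, and 117 Cd163l1 and 0 Il17a UMIs in the syngeneic library. Allogeneic cells without type 17 UMIs had a Pdcd1 UMI in 1.96% (1.07 to 3.26%) of cells, and syngeneic ones in 3.97% (3.11 to 4.99%).

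The remaining 8 allogeneic members were closer to the label. Of these, 6 had a Cd4 UMI. They had 32 Slamf6 UMIs (1056 CPM), 9 Sh2d1a UMIs (297 CPM), 17 Cd200 UMIs (561 CPM, 14 of them in 1 cell) and 14 Maf UMIs (462 CPM), and 0 UMIs of Bcl6 and of Il4. Over these 8 cells, 25 of 29 measured follicular helper genes were at least 1.5-fold higher than in the other allogeneic CD8-negative T cells without type 17 UMIs and 0 lower, with a median log2 ratio of 1.38. Over all genes of that comparison 49.6% were at least 1.5-fold higher and 6.97% lower, with a median log2 ratio of 0.81, so at 30296 summed UMIs the list's count stood against a high background.

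The description across genes rests on the syngeneic members, set against the 1758 other CD8-negative T cells of that library. A gene counts as measured with a mean CPM of at least 10 over both groups, and as higher or lower with a ratio of at least 1.5 either way. Of 7140 measured genes, 31.4% were higher and 12% lower, with a median log2 ratio of 0.27. A follicular helper list of 38 genes leaves out the rule's own genes. Of its 34 measured genes, 28 were higher, 1 was lower (St8sia1, a sialyltransferase) and 5 were in between. The list's median log2 ratio was 1.96. The higher genes include Irf4 and Sostdc1, for each of which most or all UMIs lay in 1 cell. Under TMM scaling, which shifted every log2 ratio by -0.34, 16.6% of genes were higher and 22.3% lower, and the list gave 28 genes higher and 1 lower.

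Of the factors described here Maf, Bcl6, Batf, Tox, Hif1a, Cebpa and Irf4 were at least 1.5-fold higher in members, Irf4 mostly through 1 cell, and Tcf7 was not. Maf, which drives cytokine genes of helper cells, had 63 UMIs in 24 of 34 members (lowest 0, median 1, highest 9 per cell), 273 CPM against 27.6 CPM in the other cells, a log2 ratio of 3.30 (2.88 to 3.71). Bcl6, the lineage factor, had 6 UMIs in 5 members, 26.0 CPM against 2.86 CPM (log2 3.18, 1.60 to 4.51). Low counts limit Bcl6, and after thinning every cell to 3000 UMIs 5.88% of members and 0.967% of the other cells had a UMI of it. The basic leucine zipper factor Batf had 134 CPM in members and 46.5 CPM in the other cells (log2 1.53, 0.95 to 2.06), and Tox, related to Tox2, 156 and 48.8 CPM (log2 1.68, 1.14 to 2.17). Hif1a, the oxygen-sensitive factor, had 255 CPM in members and 48.6 CPM in the other cells (log2 2.40, 1.98 to 2.79). Cebpa had 43.3 and 2.62 CPM, and Irf4 26.0 and 4.76 CPM, with 5 of the 6 Irf4 UMIs in 1 cell and an Irf4 ratio of 0.954 without that cell. Tcf7, which naive T cells also use, did not reach the 1.5-fold mark, with 320 CPM in members and 248 CPM in the other cells (log2 0.37, 0.01 to 0.70).

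Receptors and adaptors of T and B cell contact made up the best counted part of the list. Icos, the costimulatory receptor, had 55 UMIs in 23 members (lowest 0, median 1, highest 5 per cell), 238 CPM against 25.1 CPM (log2 3.25, 2.79 to 3.68). Sh2d1a, the adaptor SAP that Slam receptors need, had 107 UMIs in 28 members, 463 against 95.6 CPM (log2 2.28, 1.97 to 2.57). Slamf6, such a receptor, had 111 UMIs in 31 members, 480 against 101 CPM (log2 2.25, 1.96 to 2.54). All of these were seen in most members and in no case did 1 cell hold more than 13 UMIs. Cd200, an inhibitory ligand, stood at 225 CPM in members and 24.3 CPM in the other cells (log2 3.21, 2.74 to 3.66), and Btla, an inhibitory receptor, at 86.6 and 28.1 CPM (log2 1.62, 0.89 to 2.28). Izumo1r, the folate receptor 4, stood at 489 and 135 CPM (log2 1.85, 1.56 to 2.13), and Lag3, a checkpoint receptor, at 90.9 and 9.28 CPM (log2 3.29, 2.52 to 4.0). The 8 members with at least 3 UMIs of Ikzf2, a regulatory T cell gene described below, held 61393 of the members' 231023 UMIs. They held 53 of 113 Izumo1r and 13 of 21 Lag3 UMIs, but 16 of 107 Sh2d1a UMIs. The small membrane protein gene Smco4 had 101 UMIs in 27 members, 437 CPM against 55.5 CPM (log2 2.98, 2.65 to 3.29). Cd84, a further Slam receptor, had 173 and 146 CPM (log2 0.25, -0.25 to 0.70), and the interleukin 6 receptor genes Il6ra (126 and 139 CPM) and Il6st (69.3 and 51.5 CPM) also stayed within 1.5-fold.

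Il4 came from few cells, while the ligand genes Cd40lg, Tnfsf8 and Tnfsf11 were seen in 16 to 22 of 34 members. Il4, which drives class switching, had 19 UMIs in 7 members, 82.2 CPM against 0.714 CPM (6 UMIs) in the other cells, a log2 ratio of 6.85 (5.47 to 8.46). Of the 19 Il4 UMIs, 18 lay in Cxcr5-positive members and all lay in Pdcd1-positive ones. Only 2 members had both Il4 and Il21, 2 had both Bcl6 and Il21, and 0 had both Bcl6 and Il4. The CD40 ligand gene Cd40lg, needed by germinal centre B cells, had 41 UMIs in 22 members, 177 CPM against 62.4 CPM (log2 1.51, 1.01 to 1.97). Tnfsf8, the CD30 ligand, had 101 UMIs in 16 members, 437 against 67.7 CPM (log2 2.69, 2.37 to 3.0), with 45 UMIs in 1 cell. Tnfsf11, the ligand RANKL, had 23 UMIs in 16 members, 99.6 against 4.52 CPM (log2 4.46, 3.65 to 5.24). Angptl2 had 21 UMIs in 7 members, 90.9 against 3.81 CPM (log2 4.58, 3.71 to 5.42). Sostdc1 had 12 UMIs, all in 1 cell. Of 9 measured genes of a list of other helper cytokines and ligands, 5 were higher and 0 lower (median log2 1.01), and Ltb, the lymphotoxin beta gene, had 1151 CPM in members and 1400 CPM in the other cells (log2 -0.28, -0.46 to -0.11).

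**Figure D2:**
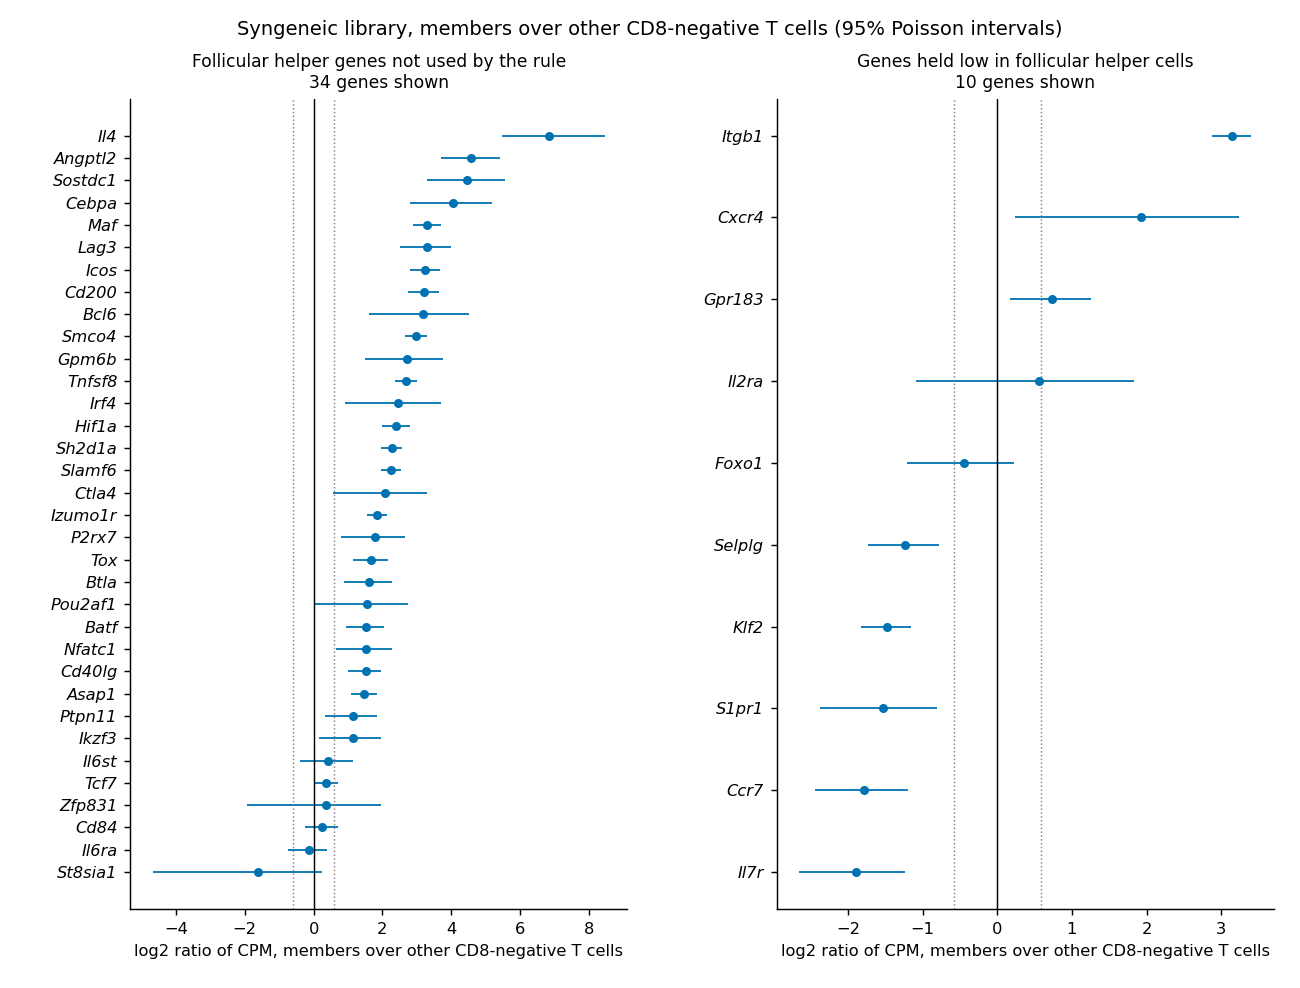
Points are log2 ratios of CPM in 34 syngeneic members over 1758 other CD8-negative T cells, with exact Poisson 95% intervals. Shown are measured genes of the follicular helper list (left, 34 genes) and of the list taken as held low in those cells (right, 10 of 11 genes). Dotted lines mark 1.5-fold. At left 28 genes lie right of the upper line and St8sia1 left of the lower one, and at right 5 genes lie below and Itgb1, Cxcr4 and Gpr183 above.

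A list of genes taken as held low in follicular helper cells, part of them homing genes, had more genes lower than higher in members. That follicular helper cells hold each listed gene low was assumed and not tested here. Of 11 measured genes of that list, 6 were lower and 3 higher (median log2 -1.17). Klf2, a factor that keeps T cells circulating, had 333 CPM in members and 929 CPM in the other cells (log2 -1.48, -1.82 to -1.16). The T zone receptor Ccr7 had 99.6 and 343 CPM (log2 -1.79, -2.45 to -1.20), and the exit receptor S1pr1 64.9 and 187 CPM (log2 -1.53, -2.37 to -0.80). Il7r, the survival receptor for interleukin 7, had 77.9 and 290 CPM (log2 -1.90, -2.65 to -1.23), and Selplg, the selectin ligand PSGL-1, 164 and 387 CPM (log2 -1.23, -1.74 to -0.77). The 3 higher genes were Itgb1, Cxcr4 and Gpr183. Itgb1, the integrin beta 1 gene, had 641 and 72.5 CPM (log2 3.14, 2.87 to 3.41), with a median of 2.5 and a highest of 24 UMIs per member. Cxcr4 had 21.6 and 5.71 CPM (log2 1.92, 0.24 to 3.24). Gpr183 had 134 and 80.6 CPM (log2 0.74, 0.17 to 1.26, but -0.18 without cells holding B cell UMIs). Prdm1, the factor opposed to Bcl6, had 0 UMIs in members and 22 in the other cells, and at this depth no fold is given. Of 10 naive T cell genes 0 were higher and 9 lower (median log2 -1.26). Igfbp4, known from naive CD4 T cells, had 6 UMIs in members, 26.0 against 583 CPM (log2 -4.49, -5.94 to -3.37), Dapl1 73.6 and 532 CPM (log2 -2.85, -3.63 to -2.17), and the factor Lef1 164 and 519 CPM (log2 -1.66, -2.16 to -1.20).

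Levels by marker sum show where the threshold falls. In syngeneic cells with 0, 1, 2 and at least 3 marker UMIs (1679, 79, 10 and 24 cells), Maf stood at 24.3, 91.7, 233 and 288 CPM. Slamf6 stood at 95.8, 195, 450 and 492 CPM, and Sh2d1a at 95.9, 89.3, 202 and 564 CPM. Maf and Slamf6 were thus higher already at 1 marker UMI, and Sh2d1a was not. Not every gene was highest at 3 or more. Itgb1, Izumo1r and Icos stood at 900, 543 and 264 CPM at 2 marker UMIs. At 3 or more they stood at 540, 468 and 228 CPM, and the intervals of Izumo1r and Icos overlap. Klf2 stood at 943, 661, 714 and 186 CPM, Ccr7 at 349, 232, 202 and 60.0 CPM, and Igfbp4 at 592, 420, 77.6 and 6.00 CPM. In the allogeneic library the cells with at least 3 marker UMIs (14 cells, 12 of them with type 17 UMIs) had 571 CPM of Maf, 335 of Klf2, 62.1 of Ccr7 and 37.3 of Igfbp4, against 39.2, 1159, 433 and 577 CPM at 0 marker UMIs. Slamf6 and Sh2d1a were not highest there, with 112, 342, 657 and 149 CPM of Slamf6 and 60.7, 205, 296 and 0 CPM of Sh2d1a at 0, 1, 2 and at least 3 UMIs.

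**Figure D3:**
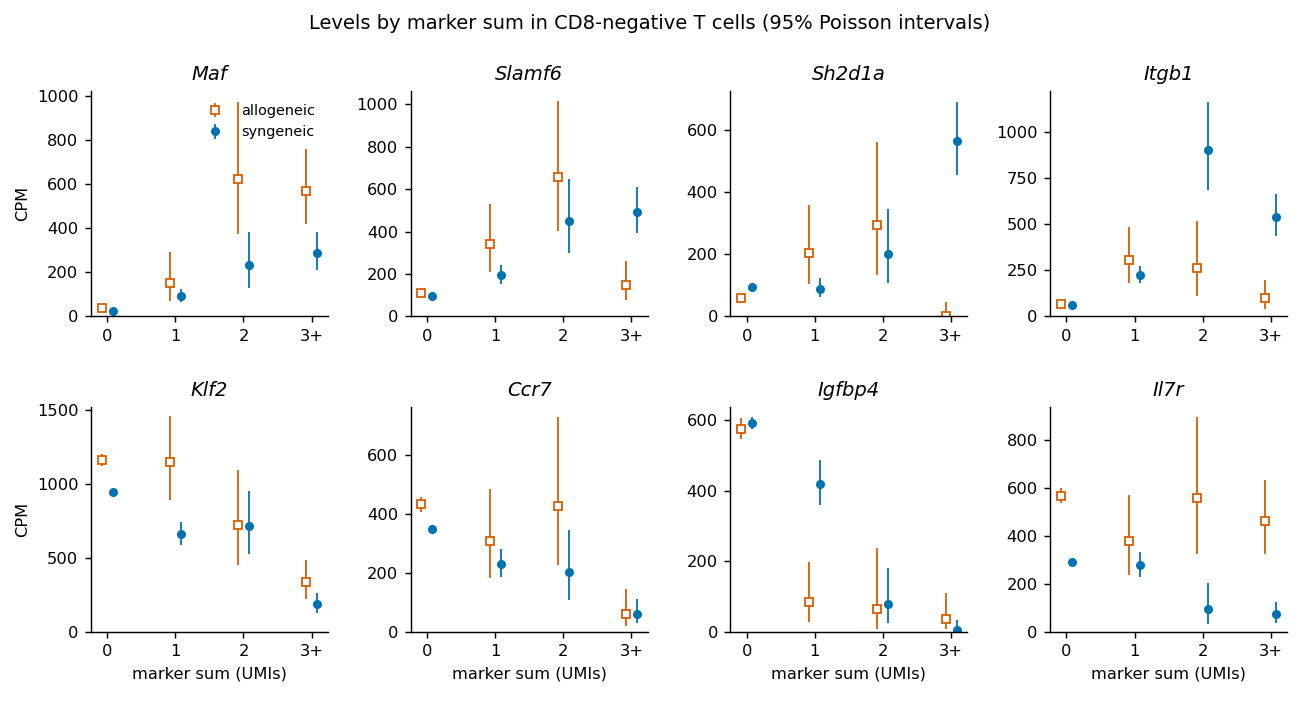
CPM of 8 genes in CD8-negative T cells with a marker sum of 0, 1, 2 and at least 3 UMIs, with open squares for the allogeneic and filled circles for the syngeneic library and exact Poisson 95% intervals as bars. The syngeneic Maf, Slamf6 and Sh2d1a levels are highest at 3 or more UMIs, Ccr7 and Igfbp4 lowest, and allogeneic Sh2d1a is at 0 UMIs there. The text names syngeneic genes that were highest at 2 UMIs.

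The syngeneic members were not uniform. The 8 Il21-positive cells all had a Cd4 UMI and held 36 of the 63 Maf UMIs (564 CPM), with 454 CPM of Cd200 and 752 CPM of Smco4. The 18 Cxcr5-positive cells had 667 CPM of Sh2d1a, 376 CPM of Maf and 1 Il7r UMI, and the 16 cells without Cxcr5 had 289 CPM of Sh2d1a, 185 CPM of Maf and 17 Il7r UMIs. The 14 Tox2-positive cells had 742 CPM of Slamf6 and 0 Il7r UMIs. Cd4 had a UMI in 26 of 34 members (lowest 0, median 1.5, highest 5), 255 CPM against 174 CPM in the other cells (log2 0.55, 0.15 to 0.93), so the gate on CD8 alone let in cells with no Cd4 UMI in both groups. The 5 cells without Pdcd1, a gene of the rule, had 1106 CPM of Klf2, from 30 UMIs in 3 of the cells. The 29 cells with Pdcd1 had 231 CPM, from 47 UMIs in 17 cells.

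Shares of cells thinned to 3000 UMIs each gave the same order. Slamf6 and Smco4 each had a UMI in 70.6% of 34 syngeneic members, against 21.96% (Slamf6) and 14.9% (Smco4) of the 1758 other cells. Itgb1 had one in 58.8% and 11.9%, Icos in 47.1% and 4.61%, and Maf in 44.1% and 4.10%. Cd4 had one in 47.1% and 40.3%, and Ccr7 in 20.6% and 60.9%. Without thinning the shares were 91.2% and 29.7% for Slamf6 and 70.6% and 5.92% for Maf. In the allogeneic library 17 of 22 members reached 3000 UMIs, and Cd163l1 had a UMI in 64.7% of them, against 0.247% of 405 other cells.

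Other gene groups set the syngeneic members apart from the other CD8-negative T cells. Of 15 proliferation genes 14 were higher and 0 lower (median log2 1.69), but the 2 cells with most such UMIs (214 and 198) held 58.1% of the 709 UMIs of the list, and the median cell held 6. The division marker Mki67 had 33 UMIs in 7 members, up to 13 in 1 cell (143 against 14.3 CPM), and the chromatin protein gene Hmgb2 had 288 UMIs, 100 of them in 1 cell. Of 9 measured regulatory T cell genes 7 were higher and 1 lower (median log2 1.91), while Foxp3 was at 0 by the rule. Ikzf2, the factor Helios, had 59 UMIs in 15 members (lowest 0, median 0, highest 14), 255 CPM against 53.8 CPM in the other cells and 560 CPM in Foxp3-positive cells. Tnfrsf4, the receptor OX40, had 195, 51.9 and 575 CPM in those 3 populations, and Tnfrsf9, the receptor 4-1BB, had 147 CPM in members and 16.8 CPM in the other cells, with 17 of 34 UMIs in 1 cell. The 8 members with at least 3 Ikzf2 UMIs had 261 CPM of Sh2d1a and 863 CPM of Izumo1r. Whether some of these are regulatory cells whose Foxp3 RNA was missed was not tested.

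Of 4 measured type 17 genes 4 were higher (median log2 2.35), with Ccr6, a homing receptor, at 134 and 25.7 CPM (log2 2.38, 1.79 to 2.93) and the receptor Il1r1 at 47.6 and 2.50 CPM (log2 4.25, 3.05 to 5.37). The nuclear receptor Rora had 99.6 and 20.1 CPM (log2 2.31, 1.61 to 2.94). The defining cytokines Il17a and Il17f were at 0 UMIs in the syngeneic members. Of 7 checkpoint receptor genes 5 were higher (median log2 0.92), such as Cd5 with 264 and 140 CPM (log2 0.92, 0.52 to 1.29) and Cd6 with 247 and 138 CPM (log2 0.84, 0.43 to 1.22). Of 14 type I interferon response genes 2 were higher and 2 lower (median log2 -0.16), with Ifi27l2a at 2896 and 1067 CPM (log2 1.44, 1.33 to 1.55) and seen in all 34 members. Of 5 measured type 1 and cytotoxic genes 0 were higher and 2 lower, and the chemokine gene Ccl5 had 195 and 474 CPM (log2 -1.28, -1.74 to -0.86), with 31 of 45 UMIs in 1 member and a log2 ratio of 0.11 where a Cd4 UMI was required. Receptor signal and immediate early genes had 3 of 9 higher and 1 lower (median log2 0.42). Of all 7140 measured genes 31.4% were higher and 12% lower, so this last list was near the background. Under TMM scaling 3 of 7 checkpoint genes were higher and 1 lower, and 1 of 9 receptor signal genes higher and 3 lower. The type 17 (4 of 4), proliferation (14 of 15) and regulatory (6 of 8, 1 lower) lists stayed mostly higher under that scaling.

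The direction of the B cell genes changed when the rule was applied to thinned counts, which also changed the cells. Of 9 measured B cell genes 0 were higher and 5 lower (median log2 -0.85), and the 13 listed genes summed to 961 CPM in members and 2195 CPM in the other cells. Cd79b stood at 60.6 and 66.6 CPM, Ms4a1 had 4 UMIs in the members, and Cd74, the invariant chain of antigen presentation, stood at 338 and 964 CPM (log2 -1.51, -1.85 to -1.19). With every cell thinned to 3000 UMIs and the rule applied to the thinned counts, there were 36 members among 2313 gated cells, against 34 among 1792. In that setting 5 of 10 B cell genes were higher and 0 lower (median log2 0.73), and Cd74 had a log2 ratio of 0.57. Of all genes 36.7% were then higher and 15.1% lower. Whether depth or the changed set of cells turned the direction was not tested. The follicular list then gave 28 of 33 genes higher and 1 lower. Erythroid, neutrophil and macrophage genes had 0 of 7 higher and 7 lower, and of the 4 measured gamma-delta and innate-like genes 1 was higher and 3 lower.

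**Figure D4:**
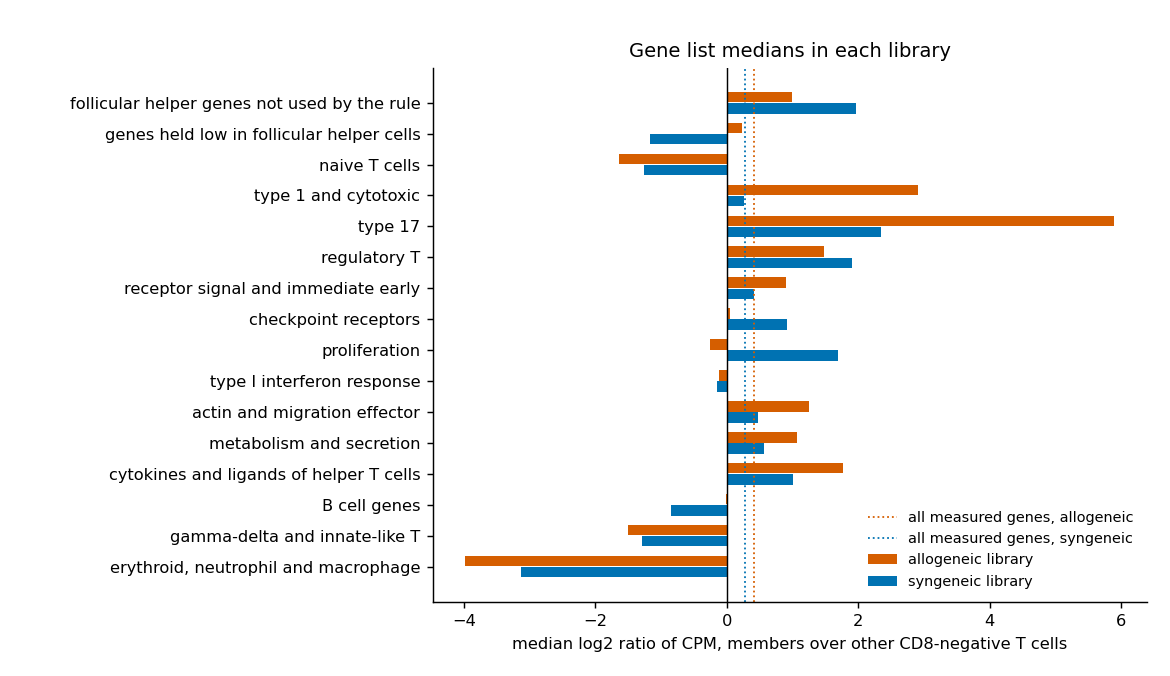
Bars are the median log2 ratio of CPM, members over other CD8-negative T cells, of each gene list with at least 4 measured genes, allogeneic above syngeneic, and dotted lines are the medians of all measured genes (0.41 allogeneic and 0.27 syngeneic). The follicular list stands at 0.99 and 1.96, and the type 17 list at 5.90 and 2.35.

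With the genes that chose the cells left out, the 15 highest and 10 lowest ratios of the syngeneic library whose interval excluded 1 were named. The highest were Areg, Gna14, Il4, Sccpdh, RP23-361A18.4, Smtn, Ubtd1, Penk, Ska3, 5430421N21Rik, Cc2d2a, Kntc1, Zbtb32, Il1r2 and Angptl2. Areg, the growth factor amphiregulin, had 44 UMIs in members, all in 1 cell, against 0.238 CPM (2 UMIs) in the other cells. Smtn, the cytoskeletal protein smoothelin, was more widely seen, with 19 UMIs in 9 members, 82.2 against 1.19 CPM (log2 6.11, 4.93 to 7.38). Zbtb32, a zinc finger repressor of lymphocytes, had 15 UMIs in 6 members, 64.9 against 2.50 CPM (log2 4.70, 3.64 to 5.72). Il1r2, the decoy receptor for interleukin 1, had 17 UMIs in 4 members, 13 of them in 1 cell (73.6 against 2.98 CPM). The opioid precursor gene Penk had 6 UMIs in 2 members, and the other genes of the 15 not described here had 5 to 14 UMIs. The lowest were Hba-a1, Igfbp4, Hbb-bs, Hba-a2, H2-M2, Klhdc1, Lyz2, Rcn1, Scml4 and S100a8, of which the 3 haemoglobin genes, the myeloid gene Lyz2 and the neutrophil gene S100a8 belong to other cell types. Hbb-bs stood at 17.3 CPM in members and 348 CPM in the other cells.

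In the allogeneic library, members over the other CD8-negative T cells gave 41.3% of 7400 measured genes at least 1.5-fold higher and 15.4% lower, with a median log2 ratio of 0.41. Of 26 measured follicular helper genes 15 were higher and 5 lower (median log2 0.99), and of the 8 type 17 genes all were higher (median log2 5.90). Under TMM scaling, which shifted every log2 ratio by -0.51, 20.2% of genes were higher and 29.7% lower, and the follicular list gave 10 of 24 genes higher and 7 lower. Maf stood at 586 and 41.9 CPM (log2 3.81, 3.34 to 4.27), Icos at 415 and 19.4 CPM (log2 4.42, 3.81 to 5.03), and Hif1a at 631 and 88.9 CPM (log2 2.83, 2.42 to 3.22). The type 17 Pdcd1-positive cells held 51 of the 65 Maf UMIs, and had 533 CPM of Icos. Sh2d1a, at 81.1 and 64.0 CPM (log2 0.34, -0.81 to 1.30), and Cd200, at 153 and 90.1 CPM (log2 0.77, -0.04 to 1.48), had intervals that span 0. S1pr1 had 0 UMIs in members and 441 in the other cells, which against the floor of 3 UMIs puts the log2 ratio at -2.69 or below.

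Between the libraries, allogeneic over syngeneic members gave 33.5% of 7447 measured genes at least 1.5-fold higher and 22.4% lower, with a median log2 ratio of 0.06. Under TMM scaling 28.6% were higher and 30.5% lower. The 10 highest by the rule were Hba-a1, Cd163l1, Hbb-bs, S100a8, Il17a, Blk, Ccl4, Klrk1, Furin and Ltb4r1. The other CD8-negative T cells differed likewise, with 19285 CPM of Hba-a1 and 11892 CPM of S100a8 in the allogeneic library, against 172 and 37.8 CPM in the syngeneic library. Blk stood at 451 CPM in allogeneic and 4.33 CPM in syngeneic members (log2 6.70, 4.16 to 12.0), and Ltb4r1, a leukotriene receptor, had 73 and 0 UMIs. The killer receptor gene Klrk1 had 29 UMIs in 11 allogeneic cells and 1 UMI in the syngeneic cells. The 10 lowest were Tesc, Rgcc, Stmn1, Mki67, 2810417H13Rik, Hist1h2ap, Map4k4, Hmox2, Cd40lg and Tnfsf8, of which Stmn1, Mki67, 2810417H13Rik and Hist1h2ap had 20 of 41, 13 of 33, 34 of 73 and 46 of 46 syngeneic UMIs in 1 cell. Cd40lg stood at 18.0 CPM in allogeneic and 177 CPM in syngeneic members (log2 -3.30, -6.39 to -1.35). Without the cells holding type 17 UMIs its log2 ratio was -1.38 (-4.47 to 0.57), with 2 allogeneic UMIs, and that of Tnfsf8 was -1.41 (-3.07 to -0.14).

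Some gaps between the libraries turned round without the cells holding type 17 UMIs. Over all members Slamf6 stood at 288 CPM in allogeneic and 480 CPM in syngeneic members (log2 -0.74, -1.35 to -0.16), and Icos at 415 and 238 CPM (log2 0.80, 0.20 to 1.39). Without the cells with type 17 UMIs Slamf6 stood at 1056 CPM in 8 allogeneic and 466 CPM in 33 syngeneic members (log2 1.18, 0.56 to 1.76), and Icos at 99 and 242 CPM (log2 -1.29, -3.61 to 0.33). The interval of Icos then spans 0. Pdcd1, a gene of the rule, stood at 1163 and 364 CPM over all members, and at 363 and 370 CPM without those cells. With 1 library per graft type, neither the graft nor the depth nor the mice can be told apart as sources of these gaps.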

How the data were processed

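Cells came from lymph nodes and were run with Chromium 3′ v3 reagents, as the labels' protocols state. What the authors deposited is whole-number UMI counts for every gene and barcode, without normalization. The submitters' processing notes list mm10, Cell Ranger 2.2.0, STAR and Seurat 2.3.4. No source used here says which step chose the barcodes. UMIs of 27998 gene entries were added up to 27933 symbols, and a barcode was kept with 200 genes or more and mitochondrial UMIs of 10% or less. Scrublet, run in scanpy 1.11.5, marked 13 allogeneic cells, 1 of them a member, and 0 syngeneic cells. A caller that marks so few has not worked, and doublets were left in.

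UMIs were summed over cells and expressed as CPM. Ratios carry exact Poisson (conditional binomial) and shares exact Clopper-Pearson 95% intervals. The ratio intervals were checked on sums simulated under the same counting model, so that check does not cover UMIs that clump in single cells. Intervals of shares were not simulated. A group at 0 UMIs was set to the floor of 3 UMIs over the group. Members, gene lists and alternatives were chosen with earlier results of these data known. The genes named, leaving out the rule's own and mitochondrial, ribosomal protein and receptor segment genes, were the 15 highest and 10 lowest syngeneic ratios, both follicular lists, up to 4 genes of each other list, and the 10 highest and 10 lowest ratios between libraries. Il17f, Il23r, Zbtb16, Tnfrsf9, Cd4, Cd79b and Ms4a1, and the subsets of members, were taken after their values were seen. Alternatives added after seeing the data were Cd79a of up to 1 UMI, removal of cells with type 17 UMIs, equal weight for each cell, and a mean of at least 50 CPM. A few listed genes count in their lists and are not reported here singly.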

Additional observations from a re-analysis of the deposited data

Results flagged for a closer look

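For 8 of the named genes the ratio of members over the other CD8-negative T cells pointed in opposite directions in the 2 libraries, with both counting intervals off 0. These 8 are no count over all measured genes. The difference was not tested. Values are log2 ratios, allogeneic before syngeneic. Selplg, the selectin ligand gene, had 1.32 and -1.23. Tcf7, a factor of naive and follicular helper T cells, had -1.57 and 0.37. Ifi27l2a, an interferon response gene, had -0.70 and 1.44. Il1r2 had -2.48 (3 UMIs in allogeneic members) and 4.63 (13 of 17 syngeneic UMIs in 1 cell). Ccl5 had 2.63 and -1.28, with all 85 allogeneic UMIs and 31 of 45 syngeneic UMIs in 1 cell each. Map4k4, a kinase gene, had -2.73 (1 UMI) and 0.98. Ltb had 0.72 and -0.28. H2-Ab1, an MHC class II gene, had 1.09 and -0.85.

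The 14 type 17 Pdcd1-positive cells moved with some of these values, and their part was not tested. Without cells holding type 17 UMIs the allogeneic ratios were -0.58 for Selplg, 0.27 for Tcf7 and 0.95 for Ifi27l2a, each then on the side of the syngeneic value.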

How the results depend on the processing

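The 18 settings tried, besides the one reported, covered 214 values. None reversed the syngeneic value of a follicular helper list gene. The list's syngeneic median log2 ratio lay between 1.63 (TMM scaling) and 2.23 (2 different markers). Where a value turned round or a share or count moved, the cause was not tested. Only 22 and 34 cells carry these values, and with 1 library per graft type no replicate can be left out. No paired analysis was possible because each graft type had 1 library, so there is a single replicate number and no second pair.

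The allogeneic share of members, 2.96% as reported, was 5.35% among cells no shallower than the shallowest syngeneic barcode, 0.414% with 2 different markers, 0.727% after thinning to 1000 UMIs and 1.12% without cells holding type 17 UMIs. The syngeneic share, 1.90% as reported, was 2.66% with a Cd4 UMI required and 0.183% after thinning to 1000 UMIs. Counts of genes are given next, with their share of the genes measured in each setting. Syngeneic genes at least 1.5-fold higher, 2239 (31.4%) as reported, numbered 1139 (16.6%) under TMM scaling. They numbered 3495 (36.7%) with no minimum CPM and 732 (27.1%) at a mean of at least 50 CPM. Lower ones, 855 (12%) as reported, numbered 1530 (22.3%) under TMM scaling and 171 (6.33%) at 50 CPM. Genes lower in allogeneic than in syngeneic members, 1667 (22.4%) as reported, numbered 314 (5.29%) with 2 different markers and 869 (12.4%) without type 17 cells.

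Log2 ratios of members over other cells turned round as follows. Among allogeneic cells of that depth, Itgb1 was -0.10 and Ccl5 -2.47, and Ccl5 was -1.73 at a marker sum of at least 3. With thinning to 3000 UMIs, allogeneic Slamf6 was -1.15, and in the syngeneic library the B cell list median was 0.73, Cd74 0.57 and H2-Ab1 0.92. With 2 different markers (3 allogeneic cells), the allogeneic actin and migration list was -1.03, Ccr7 1.14, Selplg -0.30, Il1r2 0.48 and Ifi27l2a 0.48. With a Cd4 UMI required, they were -0.46, 0.42 (Ccr7), -0.82 (Selplg), 0.58 (Il1r2) and 1.03 (Ifi27l2a), with Tox at -0.72 and Tcf7 at 0.030, and syngeneic Ccl5 was 0.11. Without type 17 cells, the actin list was -0.69, Ccr7 0.34, Selplg -0.58, Ifi27l2a 0.95 and Tcf7 0.27. Without cells holding B cell UMIs, the syngeneic innate-like list was 0.10, Cd160 -0.25, Gpr183 -0.18 and H2-Ab1 0.21. With up to 1 Cd79a UMI allowed, syngeneic Ccl5 was 0.12.

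Ratios of allogeneic over syngeneic members turned round for Icos (-0.36) and Tox2 (0.43) with 2 different markers, for Hist1h2ap (1.15) with up to 1 Cd79a UMI allowed, and for Icos (-1.29), Slamf6 (1.18), Cxcr5 (0.37) and Pdcd1 (-0.025) without type 17 cells. TMM scaling shifted every such ratio by -0.18.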
